A study of Mus musculus with 14 samples.

Results

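Of the 6758 regions in the authors' comparison of NKX2.2 binding between Klf4-knockdown and control alpha cells, 2406 were compact sites inside genes and away from gene ends. A region was counted as such a site when it lay on chromosomes 1 to 19 or X from position 3500000 on and combined at most 6 of the windows in which reads were counted. Its midpoint also had to fall inside a protein-coding gene and over 1000 bp from every end of a protein-coding gene. These criteria use position and size, not the measured change. The sites fell in 1742 genes. In all, 2382 sites lay in 1 gene, 23 in 2 overlapping genes and 1 in 3.

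The material was alphaTC6, an established line of mouse alpha cells, the pancreatic islet cells that secrete glucagon, of wild-type genotype per the labels. In both arms siRNA, a short RNA that silences its target, was delivered by lipid in a 48 h reverse transfection, aimed at Klf4 in one arm and of scrambled sequence in the other. NKX2.2 was immunoprecipitated from enzymatically sheared chromatin in 4 samples given scrambled siRNA and 3 given Klf4 siRNA. Input chromatin, taken without immunoprecipitation, was sequenced as 4 and 3 further libraries of the same arms. The series' design text calls the samples biological replicates, and all come from 1 cell line, transfected transiently. Expression was not measured in the data used here, so neither alpha-cell markers nor the depletion of Klf4 could be checked.

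NKX2.2 is a homeodomain transcription factor needed for the formation and the identity of pancreatic endocrine cells, and it can activate or repress genes. KLF4 is a zinc-finger transcription factor that binds GC-rich CACCC-type boxes in promoters and enhancers. Many binding sites of such factors lie within genes, mostly in introns, where a site can act as an enhancer for its host or for another gene, or as an internal promoter. The question of the comparison, per the series' design text, was where NKX2.2 occupancy differs when Klf4 is knocked down.

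A minority of the sites sat on an internal promoter, and these are the sites whose sequence can be shown. In RefSeq's GRCm38.p6 promoter table, each start of a transcript has a window of 300 bases, 250 before and 50 after the start. Such a window was overlapped by 154 sites, 125 of them at a coding start inside the host gene and 29 at the start of a long noncoding RNA (lncRNA). The 250 bases before the start are printed 5′ to 3′ on the gene's strand for 6 of them, 4 with a negative and 2 with a positive log2 fold change, picked after their values were seen as examples of both directions. Capitals mark the NKX2 site (CACTTNA, or TNAAGTG on the other strand) and the KLF box (CCACCC, or GGGTGG on the other strand).
Gm35200: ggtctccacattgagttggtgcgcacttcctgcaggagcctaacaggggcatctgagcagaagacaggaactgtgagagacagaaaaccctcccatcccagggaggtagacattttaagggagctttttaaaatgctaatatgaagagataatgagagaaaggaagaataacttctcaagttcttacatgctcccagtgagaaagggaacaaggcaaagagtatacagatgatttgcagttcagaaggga
Ccdc71: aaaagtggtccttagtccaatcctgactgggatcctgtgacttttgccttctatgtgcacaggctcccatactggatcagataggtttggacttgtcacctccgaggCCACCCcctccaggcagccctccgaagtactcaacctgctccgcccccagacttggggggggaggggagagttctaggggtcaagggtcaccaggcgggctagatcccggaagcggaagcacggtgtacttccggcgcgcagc
Cirbp: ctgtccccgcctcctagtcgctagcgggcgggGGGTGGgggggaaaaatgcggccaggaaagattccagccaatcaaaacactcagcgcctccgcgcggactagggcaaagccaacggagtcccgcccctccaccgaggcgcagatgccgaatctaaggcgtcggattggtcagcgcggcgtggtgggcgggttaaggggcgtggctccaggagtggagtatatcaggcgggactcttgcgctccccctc
Mideas: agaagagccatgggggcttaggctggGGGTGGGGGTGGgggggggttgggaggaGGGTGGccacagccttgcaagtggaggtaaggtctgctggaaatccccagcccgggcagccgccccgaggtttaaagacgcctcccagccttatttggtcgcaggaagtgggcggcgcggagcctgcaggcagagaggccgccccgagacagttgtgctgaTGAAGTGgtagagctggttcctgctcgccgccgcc
Niban3: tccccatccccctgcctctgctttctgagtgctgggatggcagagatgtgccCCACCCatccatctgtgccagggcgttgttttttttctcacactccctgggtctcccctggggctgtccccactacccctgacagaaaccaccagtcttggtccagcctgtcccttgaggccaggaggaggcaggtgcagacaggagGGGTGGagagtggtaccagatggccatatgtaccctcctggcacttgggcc
Elavl2: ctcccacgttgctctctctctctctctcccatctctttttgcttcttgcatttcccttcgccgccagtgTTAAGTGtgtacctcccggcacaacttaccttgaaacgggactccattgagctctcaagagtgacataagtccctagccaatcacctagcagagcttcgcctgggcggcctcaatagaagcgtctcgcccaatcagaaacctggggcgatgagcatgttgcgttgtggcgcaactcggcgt

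The Gm35200 stretch, chr1:171562074-171562323 on the minus strand, belongs to an lncRNA inside Cd244a and holds neither motif. The Ccdc71 stretch, chr9:108460303-108460552 on the plus strand, holds 1 KLF box, as does that of Cirbp, which encodes a cold-inducible RNA-binding protein, at chr10:80167589-80167838 on the plus strand. The Mideas stretch, chr12:84194016-84194265 on the minus strand, holds 3 KLF boxes and 1 NKX2 site. The Mideas site itself begins past the start, outside the printed stretch, and most of it lies beyond the 300-base window. The Niban3 stretch, chr8:71597458-71597707 on the plus strand, holds 2 KLF boxes. The stretch of Elavl2, which encodes a neuronal RNA-binding protein, lies at chr4:91376497-91376746 on the minus strand and holds 1 NKX2 site. A match is a run of letters and not evidence of binding.

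Across the 154 overlapped windows, the KLF box was present in 64, or 41.6%, beside 31.5% of all 32851 windows in the table and 31.5% of the 1027 windows overlapped by compact regions at gene ends. The NKX2 site was present in 16, or 10.4%, beside 11.5% of all windows and 8.76% at gene ends. The GC box (CCCCNCCC, or GGGNGGGG on the other strand), which can overlap the KLF box, was present in 44.2%, beside 33.2% of all windows and 45.7% at gene ends. The overlapped windows were also richer in GC than the table as a whole, with medians of 58.5% against 52.7%, and held a median of 17 CpG dinucleotides against 7. The windows overlapped at gene ends had still higher medians, of 60.7% GC and 22 CpG. The GC box share was thus above that of the table in both sets, whereas the KLF box share was so only in the intragenic set. The 32851 windows mix coding and lncRNA starts, whereas 125 of the 154 overlapped windows were coding. In these 125 the KLF box was present in 43.2%, beside 33.6% of all coding windows. The GC box was present in 44.8%, beside 39.4%, and the NKX2 site in 10.4%, beside 10.8%. Their median CpG number was 18, beside 13 for all coding windows. The part of base composition and of the type of start in these shares was not tested.

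All log2 fold changes, p-values and false discovery rates (FDR) given here are those of the authors' deposited table, made with csaw. csaw tests reads in short windows between groups and combines neighbouring windows into regions, and each log2 fold change is that of the region's representative window. A region counts as called when its FDR, adjusted over all 6758 regions, was 0.05 or lower. The table does not name the numerator of the fold change, so a positive value is written as listed up and a negative one as listed down, without translation into gain or loss upon knockdown. It holds no value for any single sample, so the spread between cultures enters only through the authors' FDR, and the depth of the libraries is unknown.

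The intragenic sites, small by their definition, were on balance shifted slightly towards positive values. Their median width was 110 bp, from 3 windows, as it was in the whole table and in the other compact classes. Their midpoints lay a median of 21.8 kb from the nearest gene end. In the authors' deposited table their median log2 fold change was 0.09 (95% interval over sites 0.07 to 0.11), and 1507 sites, or 62.6% (95% Wilson interval 60.7% to 64.5%), were positive. The whole table had a median of 0.04, with 56.8% positive. Compact regions within 1000 bp of a gene end had a median of -0.05, with 41.4% of 1652 positive. Compact regions outside genes had a median of 0.11, with 63.1% of 2073 positive. Intragenic sites thus lay near intergenic ones and apart from gene ends, as the plot of the 3 distributions shows. These intervals treat regions as independent, which neighbouring regions of the same libraries are not, and no interval over cultures can be given.

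**Figure D1:**
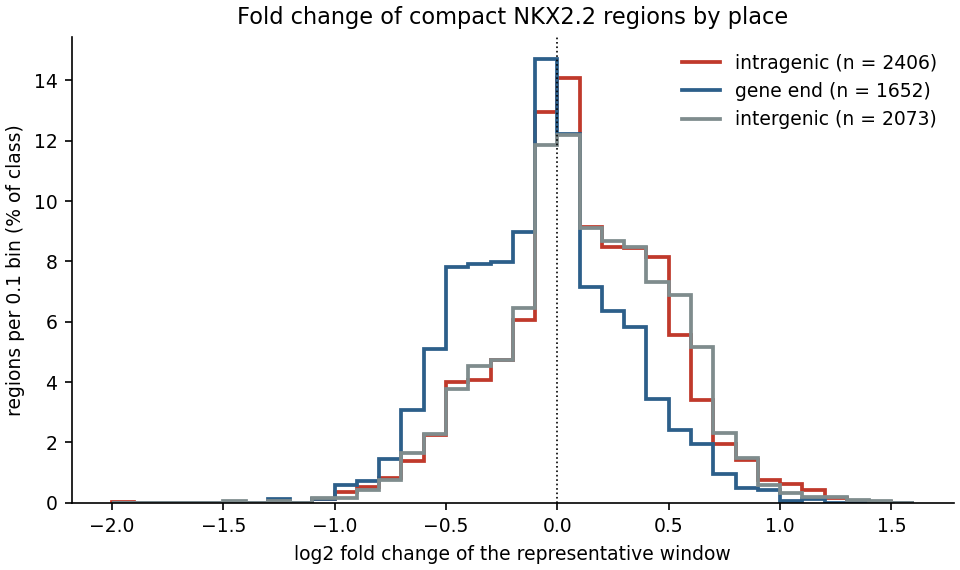
Distribution of the deposited log2 fold change (x axis) as a percentage of regions (y axis) for compact intragenic, gene-end and intergenic regions. The gene-end median of -0.05 lies left of 0, and the intragenic and intergenic medians of 0.09 and 0.11 lie right of it.

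Individual changes were few. The authors' deposited table called 24 of the 2406 sites, or 0.998%, beside 1.36% called in the whole table. Of these, 20 were listed up, where 0.769% of the whole table was called up, and 4 down, where 0.592% of it was called down. Among all 6131 compact regions 0.734% were called, with 0.242% at gene ends and 0.82% outside genes. Of the 627 regions outside the size or position limits, 7.5% were called. The share among intragenic sites was thus below that of the whole table and above those of the other compact classes. None of these differences was tested. At an unadjusted p under 0.05 there were 252 sites, or 10.5%, against 11.2% of all regions, with 198 positive (7.55% of the whole table was so) and 54 negative (3.68% of the whole table). The deposited FDR spans long, strongly scoring regions as well. When the Benjamini-Hochberg adjustment was recomputed over the 6131 compact regions alone, 6 of the 24 sites passed, those in Reep1, Cd244a, Dock2, Rab3b, Sumf1 and 3110082I17Rik. The recomputed FDR of the other 18 reached up to 0.0901.

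**Figure D2:**
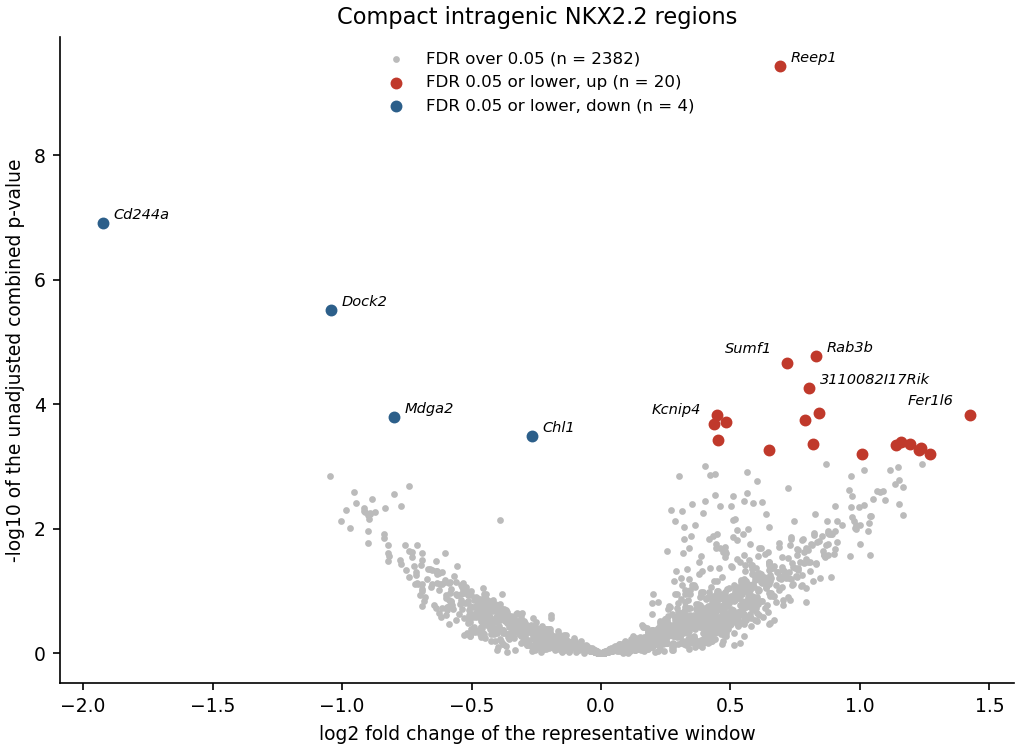
Each point is 1 of the 2406 intragenic sites, with the deposited log2 fold change on the x axis and -log10 of the unadjusted combined p-value on the y axis. Of the 24 called sites, 20 lie right of 0 (red) and 4 left of it (blue), and Reep1 and Cd244a stand highest.

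The site with the smallest FDR lay in Reep1, which encodes a protein that shapes tubular endoplasmic reticulum. At chr6:71728401-71728660, 20.4% of the way along the 103 kb gene, the authors' deposited table listed it up by 0.69 on the log2 scale (p = 3.73e-10, FDR 2.52e-06), with 4 of 6 windows up. The other Reep1 site, near the far end of the gene, had 0.18 (FDR 0.977). In Rab3b, which encodes a small GTPase of regulated secretion, the site at chr4:108941201-108941410 was listed up by 0.83 (FDR 0.00428). It lay 2.02 kb from the gene end, at 96.9% of the gene's length.

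Other called sites listed up fell in genes of varied roles. The authors' deposited table gave 0.72 (FDR 0.00475) for Sumf1, whose product activates sulfatases, at chr6:108160651-108160910. It gave 0.80 (FDR 0.00932) for 3110082I17Rik at chr5:139418701-139418960, and 0.84 (FDR 0.019) for Ctss, which encodes the lysosomal protease cathepsin S, at chr3:95554201-95554410. Fer1l6, of the ferlin family, had the highest log2 fold change of all intragenic sites, 1.43 (FDR 0.02), from a single 10 bp window at chr15:58657251-58657260. Plb1, a phospholipase gene, had 0.45 (FDR 0.0208 for its best window and 0.02 for the region). Sdccag8, of the centrosome and primary cilium, had 0.79 (FDR 0.0225).

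Tmem163, which encodes a zinc transporter of vesicle membranes, had a deposited log2 fold change of 0.48 (FDR 0.0239) at chr1:127649551-127649760. Kcnip4, which encodes a subunit that modulates A-type potassium channels, had 0.44 (FDR 0.0247) at chr5:48781251-48781460, deep inside a 1136 kb gene. Btbd3, linked to dendrite orientation, had 0.45 (FDR 0.0357), and Wscd2 had 1.16 (FDR 0.0365). The other 8 called sites listed up lay in Map3k13 (a kinase of the JNK pathway), Bicra (a chromatin remodeller subunit), Rnf2 (a Polycomb ubiquitin ligase), Mboat2 (a lysophospholipid acyltransferase), Immp2l (a mitochondrial peptidase) with Lrrn3 nested in it, Shc2 (a receptor kinase adaptor), Mrps33 (a mitochondrial ribosomal protein) and Bcr (a GTPase regulator). In the authors' deposited table their log2 fold changes ran from 0.65 to 1.27 and their FDR from 0.0382 to 0.0474, close to the limit.

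The 4 called sites listed down were in genes of immune cells and of neural adhesion. Cd244a encodes a receptor of natural killer cells. Its site, a single window at chr1:171562301-171562310, had the lowest deposited log2 fold change of all 6758 regions, -1.92 (FDR 0.000217), and overlaps the Gm35200 stretch printed above. Dock2, which encodes an activator of Rac in blood cells, had -1.04 (FDR 0.0019) at chr11:34681851-34682010. Mdga2 and Chl1, both of which encode immunoglobulin-domain adhesion proteins of neurons, had -0.80 (FDR 0.0208) at chr12:67059301-67059510 and -0.27 (FDR 0.0327) at chr6:103649051-103649310. Every one of the 16 windows in these 4 sites was counted as down, whereas 63 of the 81 windows in the 20 sites listed up were counted as up and none as down.

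The Cd244a site did not stand alone. The authors' deposited table had 26 regions within 500 kb of it, itself included, of which 19 were negative, and all 6 intragenic sites among them were negative. Among these regions, all from chr1:171410951 on were negative, and those before it had both signs. The other 3 sites in Cd244a had -0.77 (FDR 0.39), -0.40 (FDR 0.746) and -0.36 (FDR 0.799). A site in the neighbouring gene Itln1, which encodes intelectin, had -0.90 (FDR 0.221). Between these 2 genes, a region of 53 windows at chr1:171540301-171544510, too long to be counted here, had -1.61 (FDR 0.00297). A compact intergenic region next to it, at chr1:171545951-171546060, was also called, at -1.27 (FDR 0.0297). Whether the sites of this stretch are independent of that long region was not tested.

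Sites in the same gene often differed in sign. Of the 25 genes with a called site, 13 held 27 other sites, of which 14 were positive, and the smallest FDR among them was 0.321, at a second Dock2 site of -0.69. In Fer1l6, the 3 other sites had 0.66, -0.15 and -0.19. In 3110082I17Rik, the 4 others had 0.74, 0.48, 0.03 and -0.17. In Chl1, a site near the start had -0.46 and those further along had 0.14 and -0.13. Over all 689 pairs of neighbouring sites in the same gene, 291 were both positive, 94 both negative and 304 of opposite sign, so 55.9% shared a sign. Pearson's r between neighbours was 0.10, and 0.16 for the 99 pairs under 5 kb apart. Each r is a description across regions that share the same libraries. With 62.6% of all intragenic sites positive, unlinked sites would also often share or differ in sign, and the share expected for them was not computed.

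With the called sites included, 34 sites had an absolute log2 fold change of 1 or more, 30 of them positive. Of these 34, 10 were called and 7 were single windows. Among the 5 highest, Sema6d, an axon guidance gene, was the only one not called, with 1.24 (FDR 0.061) in the authors' deposited table. Among the 5 lowest, Kcnt2, a sodium-activated potassium channel gene, had -1.05 (FDR 0.0722), Tmcc1 had -1.003 (FDR 0.175) and Synj2, a phosphoinositide phosphatase gene, had -0.98 (FDR 0.145). These 3 were not called.

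Sites at internal coding starts had lower values than the other intragenic sites. For the 2321 sites on chromosomes with starts in the RefSeq promoter table, 191, or 8.23%, had their midpoint within 500 bp of an annotated start. The 151 nearest to an internal start of their coding host had a median deposited log2 fold change of -0.06, with 44.4% positive and 0 called by csaw. Of these, 12, or 7.95%, had an unadjusted p under 0.05, beside 11.2% of all regions. At gene ends, the 1120 compact regions within 500 bp of a coding start had a median of -0.05, with 41.2% positive. The 40 sites nearest to an lncRNA start had 0.12, with 62.5% positive. From 0.5 to 5 kb away from any start, 340 sites had a median of 0.12, with 66.2% positive, and the medians were 0.11 for 1105 sites at 5 to 50 kb and 0.07 for 685 sites beyond. At gene ends, negative values were not limited to coding starts: the median was -0.04, with 42.1% positive, for the 261 regions there over 5 kb from any start, and -0.14, with 27.6% positive, for the 58 nearest to an lncRNA start. The sign of the median at an lncRNA start thus differed between intragenic sites and gene ends. None of these differences was tested.

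**Figure D3:**
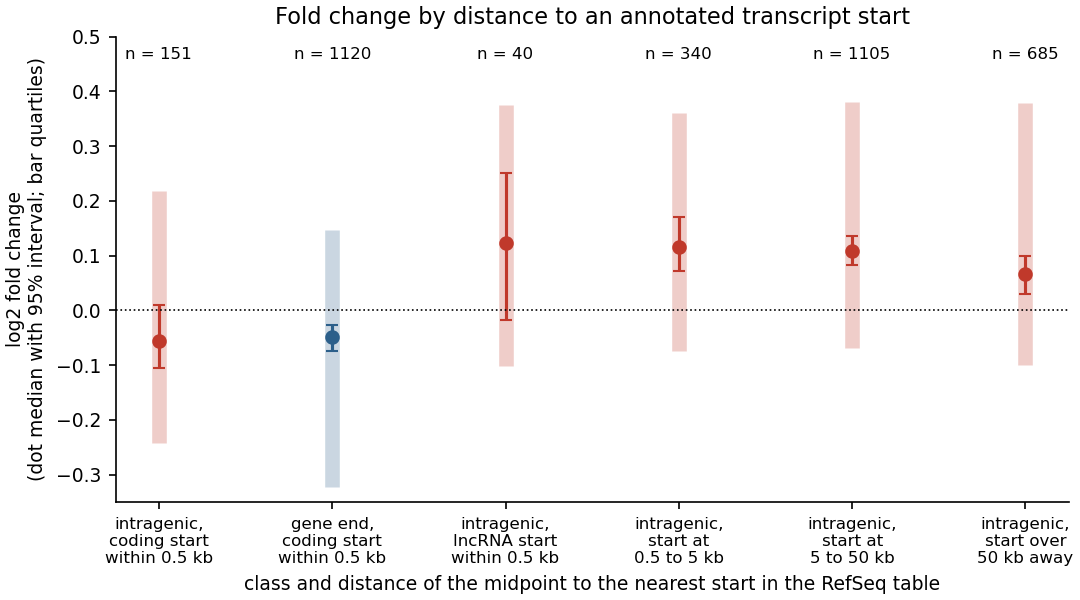
Deposited log2 fold change (y axis; dots are medians with 95% intervals over regions, bars span the quartiles) by class and distance of the midpoint to the nearest start in the RefSeq table (x axis). Sites at an internal coding start sit at -0.06, close to gene ends, and sites 0.5 to 5 kb from a start at 0.12.

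The promoter table did not match every host gene, since 1383 of the 1742 hosts were found in it. Among the 1703 sites whose hosts were all found and that were not within 500 bp of a start, the median was 0.10, with 63.6% positive. The same order held when windows were split by CpG number, a split chosen after the values were seen. The 107 sites overlapping a promoter window with 10 or more CpG had a median of -0.07 and 40.2% positive. Of these 107, 7, or 6.54%, had an unadjusted p under 0.05, all negative, beside 11.2% of all regions. The 47 overlapping a window with fewer CpG had a median of 0.06 and 63.8% positive. Of these 47, 6, or 12.8%, had such a p, 4 positive and 2 negative. Among the printed examples, the deposited log2 fold change was -0.74 (FDR 0.0938) at Ccdc71, -0.91 (FDR 0.149) at Cirbp and -0.82 (FDR 0.322) at Mideas. It was 0.88 (FDR 0.22) at Niban3, whose window holds 1 CpG, and 0.85 (FDR 0.494) at Elavl2, whose window holds 18. None of these 5 was called.

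The shift was smallest at the sites nearest to gene ends, a difference that was not tested. The median deposited log2 fold change was 0.03 for the 280 sites 1 to 3 kb from a gene end, 0.07 for 462 at 3 to 10 kb, 0.10 for 655 at 10 to 30 kb, 0.11 for 681 at 30 to 100 kb and 0.08 for 328 beyond. At the 1000 bp limit itself, the 2 sites just inside were in Tcf4, at 1001.5 bp with -0.31, and Mettl5, at 1003.5 bp with -0.39. The 2 regions just outside were at Zfp638, at 987.5 bp with -0.46, and Abcb6, at 986.5 bp with 0.03. Along the host from its 5′ end, the first 20% of the length had a median of 0.05 over 421 sites and the last 20% had 0.10 over 298. Without sites within 500 bp of a start, the first 20% had 0.09. The median was positive on each of the 20 chromosomes, from 0.03 on chromosome 5 to 0.17 on chromosome 3. The 95% interval over sites reached below 0 on some of them, as on chromosome 5 (-0.005 to 0.103). All chromosomes share the same libraries, so they are not separate repeats.

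Sites of 4 to 6 windows had a higher share of positive values than sites of 1 to 3. In the authors' deposited table, the share positive was 60.4%, 58.1% and 58.9% for sites of 1, 2 and 3 windows and 67.3%, 65.3% and 73.7% for sites of 4, 5 and 6. The called share was 1.93% for the 363 sites of 5 windows and 3.85% for the 156 of 6 windows, beside 1.36% of the whole table, and it was 2.15% for intergenic regions of 5 windows and 0.794% for those of 6. At gene ends the share positive stayed between 37.8% and 46.7% over the same window numbers, and in intergenic regions between 59.8% and 68.7%. Of intergenic regions with 6 windows, 60.3% were positive. The number of windows also reflects how many lay above the authors' filter, so signal and size cannot be told apart.

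**Figure D4:**
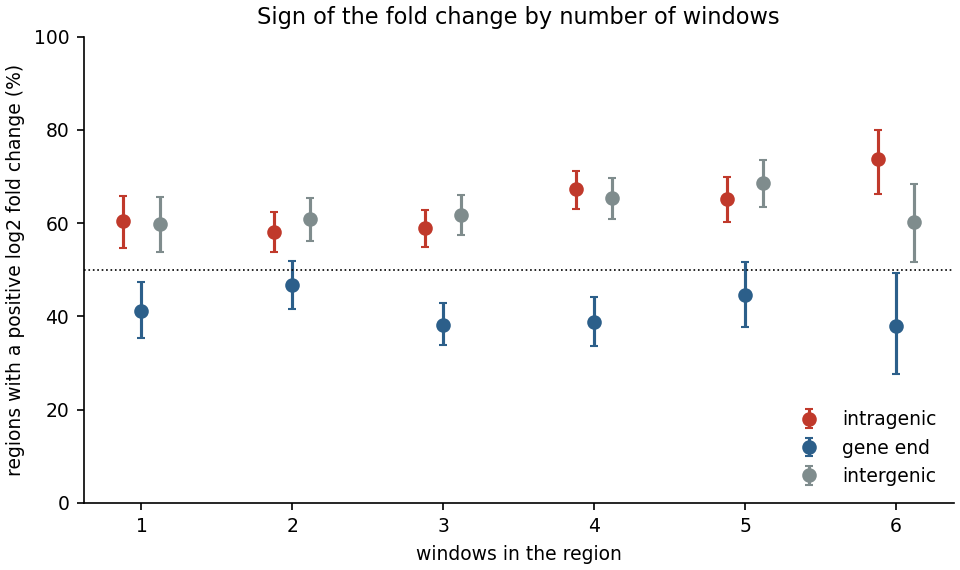
Share of regions with a positive deposited log2 fold change (y axis, percent, with 95% Wilson intervals) against the number of windows per region (x axis) for the 3 classes. Intragenic sites rise from 60.4% at 1 window to 73.7% at 6, and gene-end regions stay between 37.8% and 46.7%.

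The host genes were long. Of 19051 protein-coding genes over 2 kb, 9.14% hosted a site, and the hosts had a median length of 87.2 kb against 21.4 kb for all of them. The share hosting a site was 2.51% for genes of 2 to 20 kb and 46.3% for genes over 300 kb. Per megabase of gene, the density ran the other way, from 3.53 to 1.65 sites. Most hosts, 1321, held 1 site, and 421 held 2 or more. Among those 421, the sites were all positive in 147, all negative in 42 and of both signs in 232.

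The 10 genes with the most sites held 6 to 9 each, with Btbd9 taken first by name among 9 genes tied at 6. None of these sites was called by csaw, and 6 had an unadjusted p under 0.05. Among all intragenic sites 0.998% were called and 10.5% had such a p, beside 1.36% and 11.2% of all regions. The counts in these 10 genes are too small to compare with those shares. Gse1, a gene of a corepressor-associated protein, had 9, of which 5 were positive, and its deposited log2 fold changes ran from -0.43 to 0.79. Mical3, of a family of monooxygenases that act on actin, had 8, evenly split in sign, and its lowest value of -0.84 had an unadjusted p of 0.0046. In Wwox, an oxidoreductase gene at a common fragile site, all 7 sites were positive, from 0.01 to 0.69. Maml3, which encodes a Notch coactivator, had 6 of 7 positive with a median of 0.33. Pde3a, a cAMP-degrading phosphodiesterase gene, had 6 of 7 positive, whereas 5 of 7 were positive in Pde4d, of the same enzyme class. Dpp6, Ptprt, a receptor phosphatase gene, and Btbd9 were also among the 10.

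**Figure D5:**
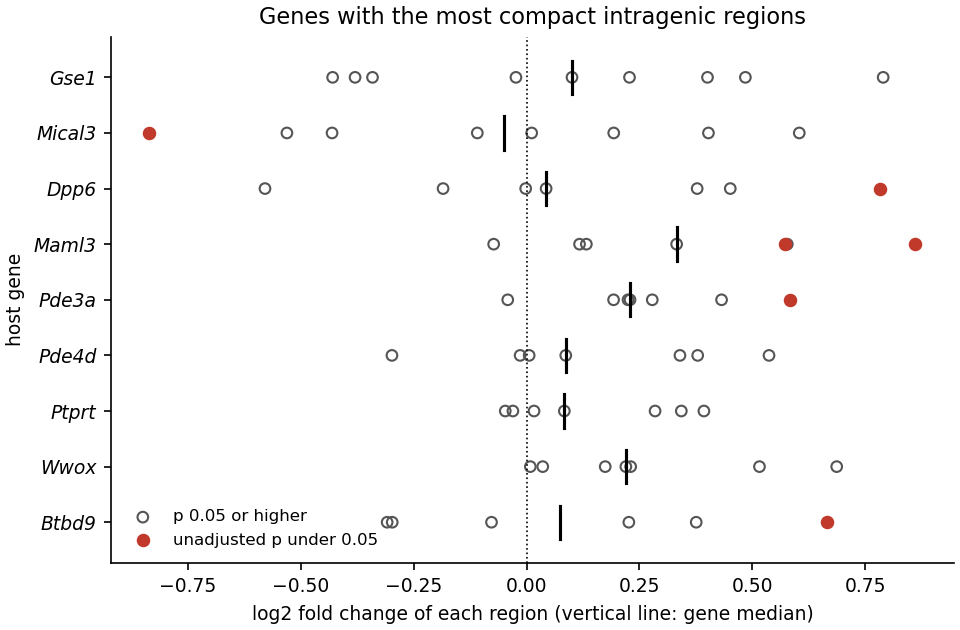
Deposited log2 fold change (x axis) of every intragenic site in 9 of the 10 genes with the most sites (y axis), with the gene median as a vertical line and sites at an unadjusted p under 0.05 filled. Values straddle 0 in every gene drawn other than Wwox, whose 7 sites are all positive.

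Among genes of pancreatic islet identity, 12 of the 55 transcription factor genes listed hosted 21 sites, 15 of them positive with a median deposited log2 fold change of 0.24. None was called by csaw, and 1, or 4.76%, had an unadjusted p under 0.05, beside 11.2% of all regions. NKX2.2's own gene, Nkx2-2, held 1 site at 0.18 (FDR 1). Sox5, an HMG-box gene, had 4 sites, from -0.40 to 0.52. Onecut2, which acts early in endocrine development, had 0.39 and 0.65, the second with an unadjusted p of 0.0344 (FDR 0.376). Isl1, a LIM-homeodomain gene of all islet cells, had 0.52 and -0.49. St18, a zinc-finger gene, had 0.59, 0.42 and -0.48. Meis1, a homeodomain cofactor gene, had 0.30 and -0.01.

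Alpha-cell hormone processing and effector genes hosted 26 sites in 13 of 36 genes, with 14 positive, none called by csaw and 3, or 11.5%, at an unadjusted p under 0.05. Their smallest FDR was at Slc7a2, which encodes a carrier of cationic amino acids such as arginine, at -0.77 (p = 0.00423, FDR 0.135 in the authors' deposited table). Dpp6, an auxiliary subunit gene of A-type potassium channels, had 7 sites, from -0.58 to 0.78, and the related Dpp10 had 5, from -0.46 to 0.56. Ptprn2, of the dense-core granule membrane, had 0.31 and 0.58. Pcsk2, the glucagon-processing convertase gene, had 0.17, and Cpe, a carboxypeptidase gene of hormone maturation, had -0.03. Slc30a8, the granule zinc transporter gene, had -0.29.

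Voltage-gated and potassium channel genes, listed together with the inositol trisphosphate receptor genes Itpr1 and Itpr2, held 51 sites in 30 of 177 genes. Of these 39, or 76.5%, were positive, beside 62.6% of all intragenic sites, with a median deposited log2 fold change of 0.24. An unadjusted p under 0.05 was found for 6, or 11.8%, and 1 was called, in Kcnip4. Over all regions 1.36% were called, and over all intragenic sites 0.998%. Cacna1c, the L-type calcium channel gene, had 6 sites, 4 positive. Cacna2d1, an auxiliary subunit gene, Itpr1 and Itpr2 each had 3 sites, all positive. The 76.5% thus includes sites of Itpr1 and Itpr2, whose products are neither voltage-gated nor potassium channels. In exocytosis and vesicle fusion genes, 16 of 30 sites were positive, 5, or 16.7%, had an unadjusted p under 0.05, beside 11.2% of all regions, and 1 was called, in Rab3b. Stxbp4, which binds syntaxin, had 0.50 and 0.96, both with an unadjusted p under 0.05 and neither called (smallest FDR 0.103). All 3 sites in Exoc4, of the exocyst, were negative, from -0.13 to -0.05.

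Genes of small GTPases and their regulators had 13 of 73 sites at an unadjusted p under 0.05, or 17.8%, beside the same 11.2%, with 10 positive and 3 negative. The 2 called were in Rab3b, listed up, and Dock2, listed down. With 1.36% of all regions and 0.998% of all intragenic sites called, counts of 1 or 2 per list are too small to compare. Trio, an exchange factor gene, had 0.88, -0.03 and -0.04. Cell adhesion and axon guidance genes held the most sites of any list, 78 in 51 of 262 genes, 46 of them positive and 9, or 11.5%, at an unadjusted p under 0.05, with 1 called, in Chl1. The teneurin gene Tenm2 had 4 of 5 positive, the cadherin gene Cdh13 3 of 4 and the Slit receptor gene Robo1 1 of 3. These lists overlap in places, as Rab3b shows, and 486 sites, or 20.2% of the 2406, lay in a gene of any list.

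The other lists held no site called by csaw in the authors' deposited table. In cAMP and G-protein signalling genes, 42 of 75 sites were positive and 2, or 2.67%, had an unadjusted p under 0.05, below the 11.2% of all regions. Rgs8, a regulator that switches G proteins off, had 3 sites, all negative, from -0.69 to -0.01, and Rapgef4, a cAMP sensor of secretion, had 2 of 3 positive. In solute carrier genes, 31 of 52 sites were positive and 2, or 3.85%, had such a p, and Slc14a2, a urea transporter gene, reached 0.86. In chromatin regulator genes, 35 of 58 were positive and 4, or 6.90%, had such a p, and Chd7, a chromatin remodeller gene, had 3 sites, all positive, with a median of 0.70. In the growth factor, Wnt, TGF-beta and Hippo list, 18 of 28 were positive and 2, or 7.14%, had such a p. Within it, all 3 sites in Gli2, a Hedgehog effector gene, were positive and both sites in Ptch1, the Hedgehog receptor gene, were negative.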

How the data were processed

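NKX2.2 ChIP-seq and input samples of alphaTC6 cells were grouped by their labels. The submitters' processing notes name FastQC, Bowtie2, MACS2 and mm10 (GRCm38), and the series' design text names csaw. How the window filter, the normalization and the input libraries were used is not given in the sources used here. 1 deposited table was used. It holds the authors' p-values, FDR and log2 fold changes per region, per the file headers, and 0 columns of values of single samples, so no depth, replicate spread or test of samples could be had, and the planned fits on per-sample values were not run. Other deposited columns give position, window counts and direction.

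Midpoints were placed against the bounds of 21887 protein-coding genes of RefSeq GRCm38.p6, which give no exons, so introns and exons were not distinguished. Strand and starts came from the RefSeq promoter table. Counts, medians with 95% order-statistic intervals and shares with 95% Wilson intervals were computed with scipy 1.17.1, pandas 2.3.3 and numpy 2.4.6 under Python 3.11.15, and drawn with matplotlib 3.10.9. Functions were tested on simulated data. Intervals cover regions, not cultures. The sites, the 10 gene lists and the alternatives were chosen with earlier results of these data known. Genes named are all called sites (values for up to 12 in each direction), the 10 hosts with most sites, the 5 highest and 5 lowest log2 fold changes, up to 4 hosts per list and 2 regions on each side of the 1000 bp limit. The printed promoters, the other islet genes, the Cd244a neighbours and the sites near microRNAs were chosen after their values were seen. Some genes that the rule names are not reported here. Alternatives covered the FDR threshold, its adjustment, the window number, the distance limit, the fold change and the window used.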

Additional observations from a re-analysis of the deposited data

How the results depend on the processing

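The number of called sites followed the threshold and the site definition. Against 24 at an FDR of 0.05, it was 6 at 0.01, 42 at 0.1, 6 with the adjustment over compact regions alone, 12 for sites over 10000 bp from a gene end and 8 for sites under 4 windows. In the 7 other alternatives it was 19 to 24. The share of called sites listed up was 83.3% and stayed between 66.7% and 87.5% in all 12 alternatives. The FDR of 0.1 added sites to the 24, and every other alternative counted some or all of the same 24 again. A steady share is therefore not independent support. The median log2 fold change was 0.1985 when the best window of each site was taken, 0.0559 for sites under 4 windows, and 0.08 to 0.10 in the 7 others. The share positive was 59.0% for sites under 4 windows and 62.5% to 64.2% in the 8 others. No result changed direction in the alternatives run, all of which use the same sites or parts of them. Of these, leaving out sites within 500 bp of a start and sites in several genes was chosen after seeing the data, and gave 23 called sites each. No paired analysis was possible because no column belongs to a single sample or replicate, and for the same reason leaving out each replicate was not run. Depth is unknown, so what it limits cannot be stated.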

Other observations

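Sites inside noncoding genes were also counted. In the authors' deposited table, 172 of the intragenic sites lay inside 158 lncRNA genes. Their median log2 fold change was 0.18, beside 0.09 for all 2406 sites. Of these 172 sites, 118 were positive, where 62.6% of all intragenic sites were so. Only 2 of the 172 were called, where 0.998% of all intragenic sites and 1.36% of all regions were called. A count of 2 is too small to compare, and none of these differences was tested. No site had its midpoint inside an annotated microRNA or small nucleolar RNA gene. Within 2 kb of a microRNA hairpin there were 15 pairs of site and hairpin. One site in Gse1 overlapped the Mir7687 hairpin, at -0.38 (FDR 1). A site in Notch1, the gene of a receptor of cell-to-cell signalling, lay 1682 bp from Mir6996 and had 0.90 (FDR 0.219). A site in Pold1, a DNA polymerase gene, lay 1246 bp from Mir7053 and had 0.32 (FDR 0.202). A site in Srebf2, which hosts Mir33 and drives cholesterol synthesis, had 0.06 (FDR 1). None of the sites near a hairpin was called.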
